A study of Mus musculus with 12 samples.

Results

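The 8 interferon-stimulated genes followed here are switched on by interferon and were measured in normal and tumour tissue of mice: Irf7, Usp18, Isg15, Oasl2, Rsad2, Cmpk2, Ifit1 and Ifit3. They were chosen by symbol, and every probe annotated to one of the 8 symbols was taken, which gave 12 of the 45281 probes on the array. Ifit1 was not detected on any of the 12 arrays, so 7 of the 8 members were among the 11754 genes tested.

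Interferons are secreted proteins that warn cells of viruses and of misplaced nucleic acids. They bind cell surface receptors, which act through the kinases Jak1 and Tyk2 to activate a transcription factor complex that includes Stat2 and Irf9, and this complex binds interferon-stimulated response elements beside its target genes. The 8 members are such targets, and their RNA is widely read as a signature of interferon signalling in infected, inflamed and tumour tissue.

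The study set mouse sarcomas against normal tissue on one-colour Illumina bead arrays. Normal muscle and normal bone marrow gave 2 samples each; 4 tumours are labelled leiomyosarcoma, a cancer defined by smooth muscle differentiation, and 4 osteosarcoma, a cancer of bone-forming cells. All 12 samples, the normal ones included, carry the genotype label "p53 flow/flox", no animal was treated, and mice were followed until a tumour was seen or a limb was paralysed; the labels give no recombinase, promoter, age or sex. The first muscle and the second bone marrow sample carry the same animal code, and within each group every sample has a code of its own. By these codes the spread within a group is a spread between animals. Nothing states outright that each code is a separate animal, and the spread behind each p-value is that of these samples alone.

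Between 14169 and 18100 probes were detected per array, and with no bead counts in the files precision is limited by how few arrays there are. Each array had had a background constant subtracted, which was 80.8 to 84.2 on 6 arrays (leiomyosarcomas 1 and 2, muscle and bone marrow) and 99.3 to 110.1 on the remaining 6 (the osteosarcomas and leiomyosarcomas 3 and 4). Neither normal tissue shares a background level with any osteosarcoma, so osteosarcoma can be set against normal tissue at 1 background level only through the leiomyosarcomas that span both. As to the labels, osteoblast markers averaged 10.4 to 11.7 on the log2 scale in osteosarcoma and 4.96 to 5.77 elsewhere, and skeletal muscle markers averaged 14.7 and 14.8 in muscle but also 11.31 in osteosarcoma 1. Smooth muscle markers (8 genes tested) averaged 6.92 to 7.33 in leiomyosarcoma and 7.16 to 8.16 in osteosarcoma. They averaged 8.11 and 8.33 in muscle and 6.29 in bone marrow. Of the 8, 4 to 6 were detected per sample in leiomyosarcoma, osteosarcoma and muscle, and 2 to 3 in bone marrow. Myh11, the smooth muscle myosin, was detected in 0 of 4 leiomyosarcomas. These averages do not set leiomyosarcoma apart from osteosarcoma, so that label is used here as given. The floxed gene itself was not analysed here.

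The core of an interferon-stimulated response element, written here as GAAANNGAAA and searched on both strands, was looked for in the promoter that RefSeq gives each member (250 bases before to 50 after the start, build GRCm38.p6). Of the 8 members, 7 are in that promoter table, and Usp18 was not looked for elsewhere. The motif occurs in 4 of these 7 promoters and in 3.44% of all 32851 promoters of the same length. The stretches below are shown because they hold the element that the transcription factor of the pathway reads; each is the 200 bases just before the start on the strand of the gene, and capitals mark the matches.
Isg15, GRCm38.p6 chr4:156200819-156201018, minus strand: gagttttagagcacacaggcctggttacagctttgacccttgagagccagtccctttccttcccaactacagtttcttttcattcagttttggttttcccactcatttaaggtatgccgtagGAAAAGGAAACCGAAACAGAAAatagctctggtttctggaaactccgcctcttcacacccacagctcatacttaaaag
Rsad2, GRCm38.p6 chr12:26456453-26456652, minus strand: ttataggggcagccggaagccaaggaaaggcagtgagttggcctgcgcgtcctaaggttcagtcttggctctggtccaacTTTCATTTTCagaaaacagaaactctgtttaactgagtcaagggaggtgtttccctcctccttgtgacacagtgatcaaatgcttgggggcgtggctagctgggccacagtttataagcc
Ifit3, GRCm38.p6 chr19:34583329-34583528, plus strand: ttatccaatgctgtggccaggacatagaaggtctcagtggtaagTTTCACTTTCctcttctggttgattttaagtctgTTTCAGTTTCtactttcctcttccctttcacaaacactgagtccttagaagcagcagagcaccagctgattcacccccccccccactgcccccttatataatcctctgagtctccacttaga
Ifit1, GRCm38.p6 chr19:34640689-34640888, plus strand: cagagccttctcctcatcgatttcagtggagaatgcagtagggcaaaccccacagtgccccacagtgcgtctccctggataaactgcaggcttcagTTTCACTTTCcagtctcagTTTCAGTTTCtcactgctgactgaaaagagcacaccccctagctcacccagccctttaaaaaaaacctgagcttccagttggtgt
Isg15 has 3 overlapping matches, which run together from 78 to 57 bases before the start, so they are not independent of each other. Ifit3 and Ifit1, family members on chromosome 19, have 2 matches each, all on the opposite strand, at 156 to 147 and 122 to 113 bases before the start in Ifit3 and at 104 to 95 and 85 to 76 in Ifit1. Rsad2 has 1 match, 120 to 111 bases before its start. No match lies in the windows of Oasl2, Cmpk2 and Irf7, which says only that these letters are not in these windows. A match is a description of sequence and not a measured binding site.

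Values below are log2 normalised signals, given in the order of the replicates. Irf7, the transcription factor that amplifies type I interferon production, was not detected in muscle (4.93 and 4.50). It read 6.30 and 5.66 in bone marrow and 6.61, 6.04, 7.28 and 5.95 in the leiomyosarcomas. The osteosarcomas read 6.31, 5.98, 9.01 and 9.09. Every tumour lay above both muscles, and osteosarcomas 3 and 4 lay above all other samples. In order, the group means were 7.60 ± 1.68 (SD, n = 4) in osteosarcoma, 6.47 ± 0.61 (n = 4) in leiomyosarcoma, 5.98 ± 0.45 (n = 2) in bone marrow and 4.72 ± 0.30 (n = 2) in muscle, and no neighbours in this order passed the test of their difference.

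Usp18 encodes the protease that removes Isg15 from its targets and damps signalling at the interferon receptor. The brighter of its 2 probes read 7.90 and 5.42 in muscle, the second not detected, and 6.43 and 5.37 in bone marrow, again with the second not detected. Leiomyosarcomas read 7.54, 7.08, 8.82 and 7.50, and osteosarcomas 7.53, 7.81, 9.50 and 10.03. All 8 tumours lay above both bone marrow samples, while muscle 1 lay among the tumours. The means were 8.72 ± 1.24 (SD, n = 4) in osteosarcoma, 7.73 ± 0.75 (n = 4) in leiomyosarcoma, 6.66 ± 1.75 (n = 2) in muscle and 5.90 ± 0.75 (n = 2) in bone marrow, and again no neighbours passed the test.

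Isg15, the ubiquitin-like protein that is attached to other proteins during the response, was not detected in muscle (4.81 and 4.48) or in bone marrow (4.87 and 4.84). It was detected in every tumour, at 5.53, 5.61, 7.03 and 6.59 in the leiomyosarcomas. Osteosarcomas read 6.70, 6.40, 9.14 and 8.36. All 8 tumours thus lay above all 4 normal samples, and the ranges of the tumour types overlapped. The group means were 7.65 ± 1.31 (SD, n = 4) in osteosarcoma, 6.19 ± 0.74 (n = 4) in leiomyosarcoma, 4.86 ± 0.02 (n = 2) in bone marrow and 4.64 ± 0.23 (n = 2) in muscle; no neighbours passed the test.

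Oasl2, a member of the oligoadenylate synthetase family that responds to double-stranded RNA, was the member with the largest gap between the muscle samples, which read 8.10 and 5.02 with the second not detected by this probe. Bone marrow read 7.74 and 6.60, and leiomyosarcomas read 8.65, 8.47, 9.35 and 9.06. Osteosarcomas read 8.67, 7.79, 10.77 and 9.95. The leiomyosarcomas lay above both normal tissues, whereas osteosarcoma 2 lay below muscle 1. Means were 9.29 ± 1.32 (SD, n = 4) in osteosarcoma, 8.88 ± 0.40 (n = 4) in leiomyosarcoma, 7.17 ± 0.81 (n = 2) in bone marrow and 6.56 ± 2.18 (n = 2) in muscle, and no neighbouring groups passed the test.

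Rsad2 (viperin), which makes a chain-terminating nucleotide against viral polymerases, and Cmpk2, a nucleotide kinase that supplies its substrate, followed another order. The 2 genes are neighbours on chromosome 12, on opposite strands, with 12664 bases and 0 genes between them. Rsad2 read 6.99 and 5.26 in muscle (the second not detected), 9.70 and 8.77 in bone marrow and 7.06, 5.91, 8.49 and 8.55 in the leiomyosarcomas. Its osteosarcoma values were 8.05, 7.31, 10.90 and 10.47. Both bone marrow samples exceeded every leiomyosarcoma and lay between the lower and the higher osteosarcomas. Means were 9.24 ± 0.66 (SD, n = 2) in bone marrow, 9.18 ± 1.77 (n = 4) in osteosarcoma, 7.50 ± 1.27 (n = 4) in leiomyosarcoma and 6.13 ± 1.23 (n = 2) in muscle.

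Cmpk2 was not detected in muscle (5.51 and 4.84) and read 8.43 and 8.61 in bone marrow. The leiomyosarcomas read 5.78, 5.49, 7.12 and 6.75, and the osteosarcomas 6.001, 5.54, 9.07 and 8.81. As for Rsad2, bone marrow exceeded every leiomyosarcoma, and only osteosarcomas 3 and 4 exceeded bone marrow. The means were 8.52 ± 0.13 (SD, n = 2) in bone marrow, 7.35 ± 1.84 (n = 4) in osteosarcoma, 6.28 ± 0.78 (n = 4) in leiomyosarcoma and 5.18 ± 0.47 (n = 2) in muscle. For neither gene did neighbours in the order pass the test.

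Ifit3, a tetratricopeptide repeat protein that partners Ifit1 in holding back viral RNA, showed no order by tissue. It read 7.67 and 5.35 in muscle (the second not detected), 6.15 and 5.88 in bone marrow and 7.18, 6.77, 6.30 and 5.92 in the leiomyosarcomas. Osteosarcomas read 5.58, 5.72, 9.01 and 6.50. Osteosarcoma 3 stood highest, muscle 1 came next, and the ranges of every pair of tissues overlapped. Mouse Ifit3 has a near-identical copy, so its signal cannot be given to 1 gene with certainty. Means were 6.70 ± 1.59 (SD, n = 4) in osteosarcoma, 6.54 ± 0.55 (n = 4) in leiomyosarcoma, 6.51 ± 1.64 (n = 2) in muscle and 6.02 ± 0.19 (n = 2) in bone marrow. Ifit1, which binds foreign RNA by its cap, had 1 probe, whose background-subtracted signal lay between -10.9 and 5.65 with a lowest detection p-value of 0.251, so its level is not known in any tissue.

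**Figure D1:**
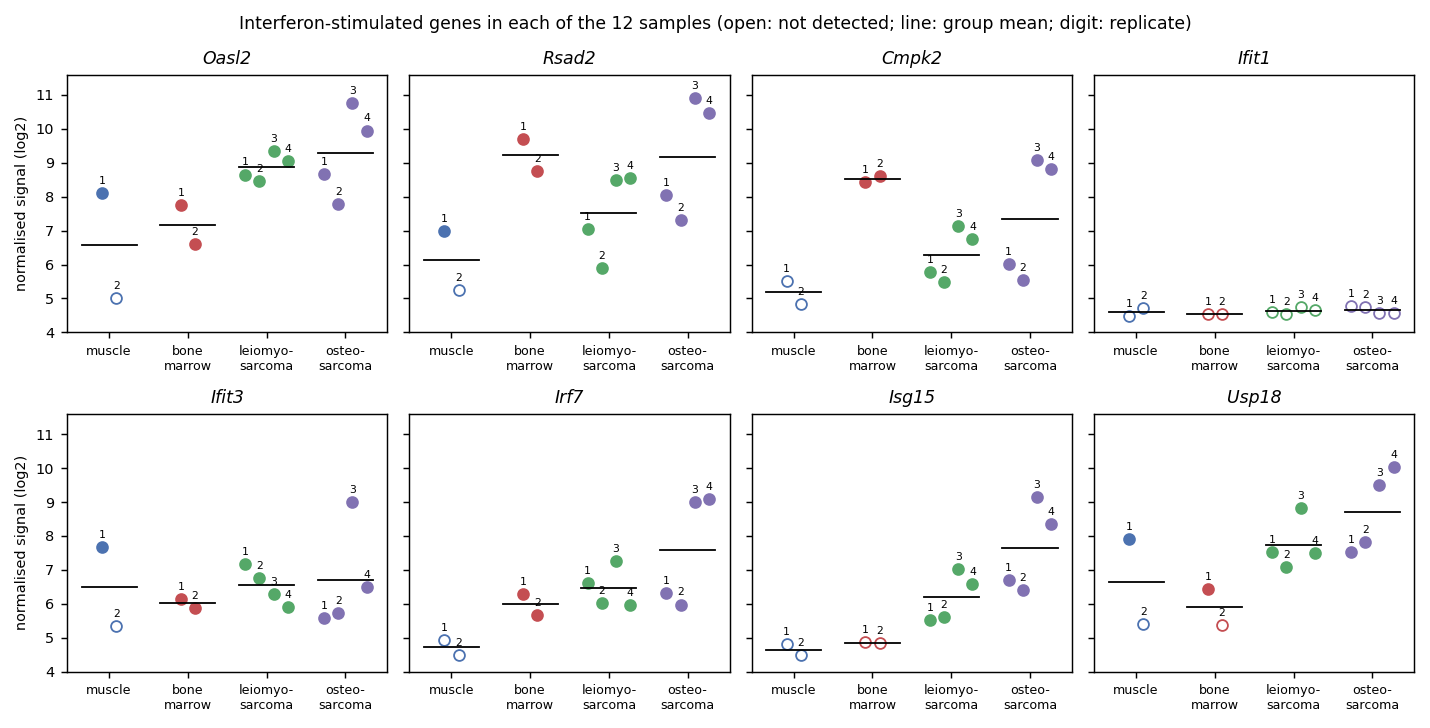
Log2 normalised signal (y axis) of the probe used for each of the 8 genes in muscle (n = 2), bone marrow (n = 2), leiomyosarcoma (n = 4) and osteosarcoma (n = 4); each point is 1 sample with its replicate number, open points were not detected and lines are group means. Osteosarcomas 3 and 4 stand above osteosarcomas 1 and 2 for the 7 detected genes, bone marrow is high for Rsad2 and Cmpk2, and Ifit1 stays near the floor at 4.50 to 4.78.

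Tumours were then compared with normal tissue in limma over all 12 arrays, with a call at an adjusted p (Benjamini-Hochberg over 11754 genes) under 0.05 and a difference of at least 1 on the log2 scale. Against muscle, osteosarcoma had 4 of the 7 tested members higher and 0 lower, where 18.5% of all genes were higher and 14.5% lower. Isg15 was higher by 3.01 ± 0.68 (log2, SE; limma adjusted p = 0.00395), which as a bound against muscles without detection is at least 4.12-fold. Irf7 was higher by 2.88 ± 0.81 (limma adjusted p = 0.0134), at least 3.96-fold. Rsad2 was higher by 3.05 ± 1.03 (limma adjusted p = 0.0314) and Oasl2 by 2.73 ± 0.86 (limma adjusted p = 0.0226), both with 1 muscle sample not detected. Usp18 (2.06 ± 0.81, limma adjusted p = 0.0590), Cmpk2 (2.18 ± 0.90, limma adjusted p = 0.0699) and Ifit3 (0.19 ± 0.87, limma adjusted p = 0.878) did not pass. The median difference of the 7 members was 2.73, or 2.04 with the 3 members absent from muscle at their bounds, and that of all genes was 0.06.

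Those calls changed with single samples and with the background level. Without muscle 2 only Isg15 was called of the 7 (Oasl2 1.19, Rsad2 2.19 and Irf7 2.67), and without osteosarcoma 3 or without osteosarcoma 4 the call of Rsad2 was lost (2.48 and 2.62). Without muscle 1 Irf7 stood at 3.09 and was not called (limma adjusted p = 0.0506), while Usp18 was called (3.30). With the background level as a block 0 members were called, with Isg15 at 1.77 (limma adjusted p = 0.222), Irf7 at 2.59 (limma adjusted p = 0.182), Oasl2 at 2.09 and Rsad2 at 1.02. The block also widened the SE, for Isg15 from 0.68 to 0.97. The share of all genes called with the block is not given here, so the lost calls may not be particular to the members.

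Set against bone marrow, osteosarcoma had 2 of 7 members higher and 0 lower, while 14.8% of all genes were higher and 13.0% lower. Isg15 was higher by 2.80 ± 0.68 (limma adjusted p = 0.00725), at least 4.53-fold, and Usp18 by 2.82 ± 0.81 (limma adjusted p = 0.0178). Oasl2 (2.12 ± 0.86, limma adjusted p = 0.0735) and Irf7 (1.62 ± 0.81, limma adjusted p = 0.142) did not pass, and Rsad2 and Cmpk2 gave -0.05 ± 1.03 and -1.17 ± 0.90. The members' median was 1.62 against 0.03 for all genes. Leaving out bone marrow 2 ended both calls (Isg15 2.78 with limma adjusted p = 0.0573, Usp18 2.29 with limma adjusted p = 0.164), and leaving out bone marrow 1 ended that of Isg15 (2.81 with limma adjusted p = 0.0521), whose difference hardly moved. With the background level as a block Isg15 stood at 1.56 and Usp18 at 1.97, neither called.

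Leiomyosarcoma against muscle gave 1 of 7 members higher and 0 lower, where 20.1% of all genes were higher and 15.1% lower. That member was Oasl2, at 2.32 ± 0.86 (limma adjusted p = 0.0439), and its difference was 0.78 without muscle 2, 3.86 without muscle 1 and 2.00 (limma adjusted p = 0.144) on the 6 arrays of low background alone. The call held in 4 of the 12 fits that leave out 1 sample; besides muscle 2 it was lost without any 1 of the leiomyosarcomas, either bone marrow sample or osteosarcoma 1, at differences of 2.17 to 2.46 (limma adjusted p = 0.0504 to 0.0878). Irf7 (1.75 ± 0.81, limma adjusted p = 0.0984, at least 1.81-fold) and Isg15 (1.55 ± 0.68, limma adjusted p = 0.0838, at least 1.49-fold) were detected in all 4 leiomyosarcomas and in neither muscle without passing. On the low-background arrays alone Irf7 was called instead (1.61, limma adjusted p = 0.0140). The members' median was 1.38, or 0.86 with 3 members at their bounds, against 0.08 for all genes.

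Against bone marrow, leiomyosarcoma had 0 of 7 members called in either direction in limma, 2 of them at an unadjusted p under 0.05, where 27.9% of all genes were called. Cmpk2 stood at -2.24 ± 0.90 (limma adjusted p = 0.0722) and Rsad2 at -1.73 ± 1.03 (limma adjusted p = 0.218), and both were called on the 6 arrays of low background alone (-2.89 and -2.75). Without osteosarcoma 2 or without osteosarcoma 3, whose spread enters the shared estimate, Cmpk2 was also called. Usp18 stood at 1.83 ± 0.81 (limma adjusted p = 0.100).

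No member passed the test between the tumour types. Osteosarcoma against leiomyosarcoma gave 0 of 7 called in limma, 1 of them at an unadjusted p under 0.05, where 7.65% of all genes were called in either direction. All 7 differences were above 0, from 0.16 for Ifit3 to 1.68 for Rsad2, and the interval for Isg15, the closest to a call, ran from 0.24 to 2.69 (limma adjusted p = 0.116). Isg15 was called without osteosarcoma 2 (1.88, limma adjusted p = 0.0430) and stood at 0.84 within the arrays of high background. Asked directly, whether leiomyosarcoma differed from muscle by another amount than osteosarcoma from bone marrow, limma called 0 of 7 members, 0 of them at an unadjusted p under 0.05, where 40.3% of all genes were called.

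Between the normal tissues, bone marrow had 1 of 7 members higher than muscle and 0 lower, where 20.3% of all genes were higher and 19.7% lower. Cmpk2 was higher by 3.35 ± 1.04 (limma adjusted p = 0.0200), at least 7.53-fold, and its neighbour Rsad2 stood at 3.11 ± 1.19 (limma adjusted p = 0.0513). Leaving out muscle 2, bone marrow 1 or bone marrow 2 ended the call of Cmpk2 (limma adjusted p = 0.0979, 0.0710 and 0.0875) at differences of 3.02, 3.44 and 3.26, while both genes were called on the low-background arrays alone. Isg15, not detected in either tissue, gave 0.21 ± 0.79. In bulk tissue, fewer cells of a type and less RNA per cell cannot be told apart, here and in every comparison above.

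**Figure D2:**
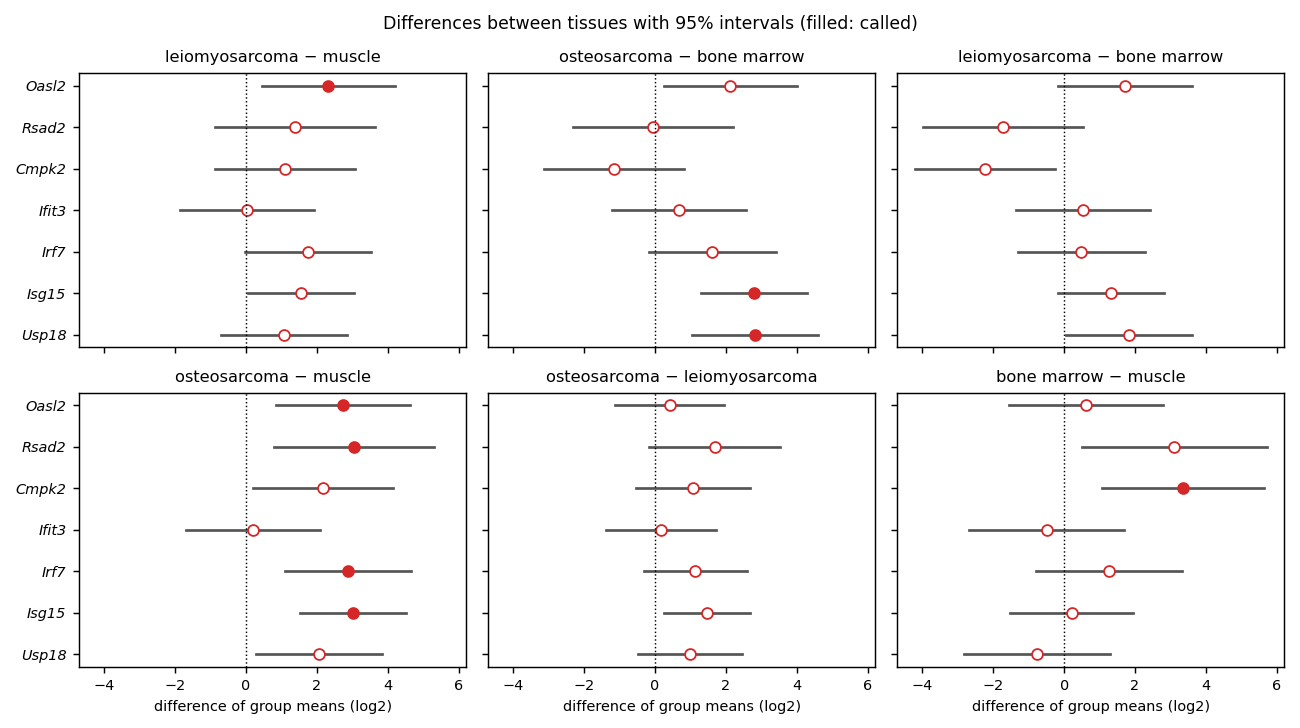
Difference of group means (x axis, log2) with its 95% interval from limma for the 7 tested genes in each of the 6 pairs of tissues; filled points were called. Osteosarcoma minus muscle has 4 filled points (Oasl2, Rsad2, Irf7, Isg15), osteosarcoma minus bone marrow 2 (Isg15, Usp18), leiomyosarcoma minus muscle 1 (Oasl2) and bone marrow minus muscle 1 (Cmpk2).

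The osteosarcomas differed more among themselves in these genes than in most others. The span from the lowest to the highest osteosarcoma was 2.50 to 3.59 for the 7 members, with a median of 3.11, against a median of 0.70 for all genes, and each member's span exceeded that of 95.7% to 98.3% of the genes tested. Osteosarcoma 3 was highest for 5 members and osteosarcoma 4 for 2, while osteosarcoma 2 was lowest for 5 and osteosarcoma 1 for 2. Of all genes, 24.5% were highest in osteosarcoma 3 and 26% in osteosarcoma 4, and 28.8% were lowest in osteosarcoma 2 and 23.2% in osteosarcoma 1. Averaged over the 7 members, the osteosarcomas read 6.98, 6.65, 9.63 and 9.03. The lower osteosarcomas were within the range of the leiomyosarcomas, at 6.91, 6.48, 7.77 and 7.19, and bone marrow, at 7.09 and 6.53.

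Muscle was uneven as well, with muscle 1 above muscle 2 for 7 of 7 members, against 49.8% of all genes. The members averaged 6.56 and 4.98, where macrophage markers averaged 7.69 and 6.61. The gaps were 3.08 for Oasl2, 2.48 for Usp18 and 2.33 for Ifit3, against a median of 0.38 for all genes. Among the leiomyosarcomas, number 3 was highest for 5 of 7 members, against 18.8% of all genes. The spans were smaller than in osteosarcoma, from 0.89 for Oasl2 to 2.64 for Rsad2. Leiomyosarcomas 3 and 4, of high background, differed from 1 and 2 in 0 of 7 members in limma, 0 of them at an unadjusted p under 0.05 (lowest limma adjusted p = 0.996, Rsad2 at 2.04 ± 1.08); of all 11754 genes 0 passed, with 605 at an unadjusted p under 0.05, so the count says nothing particular about the members.

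Other measures of the osteosarcomas can be set beside that split. All 4 have the high background level, with constants of 99.3 to 105, and 16720 to 17115 probes detected. Macrophage markers (10 genes tested) averaged 8.83, 9.12, 9.53 and 7.92, so osteosarcoma 3 was the highest and osteosarcoma 4 the lowest of the 4. The T and NK cell markers (6 genes tested) averaged 6.45, 5.81, 6.61 and 5.88, with Cd8a, Gzmb, Klrb1c and Ncr1 detected on 0 of 12 arrays. Plasmacytoid dendritic cell markers (6 genes tested) name a cell type known for releasing type I interferon. They averaged 6.79, 5.78, 7.33 and 6.58, with Ccr9 detected on 0 arrays and Spib on 1. In that list 2 genes, Bst2 and Irf8, are themselves induced by interferon, and Cox6a2 is the striated muscle form of a cytochrome oxidase subunit. For the plasmacytoid list normal muscle averaged 7.08 and 6.999, with 3 of the 6 genes detected in each sample. Both values lay above every leiomyosarcoma (5.82 to 6.94), and bone marrow averaged 7.75 and 6.79. Whether the average of this list follows that cell type was not tested. Skeletal muscle markers (9 genes tested) averaged 11.31, 4.96, 6.79 and 7.76. The part of these cells in the members' levels was not tested.

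**Figure D3:**
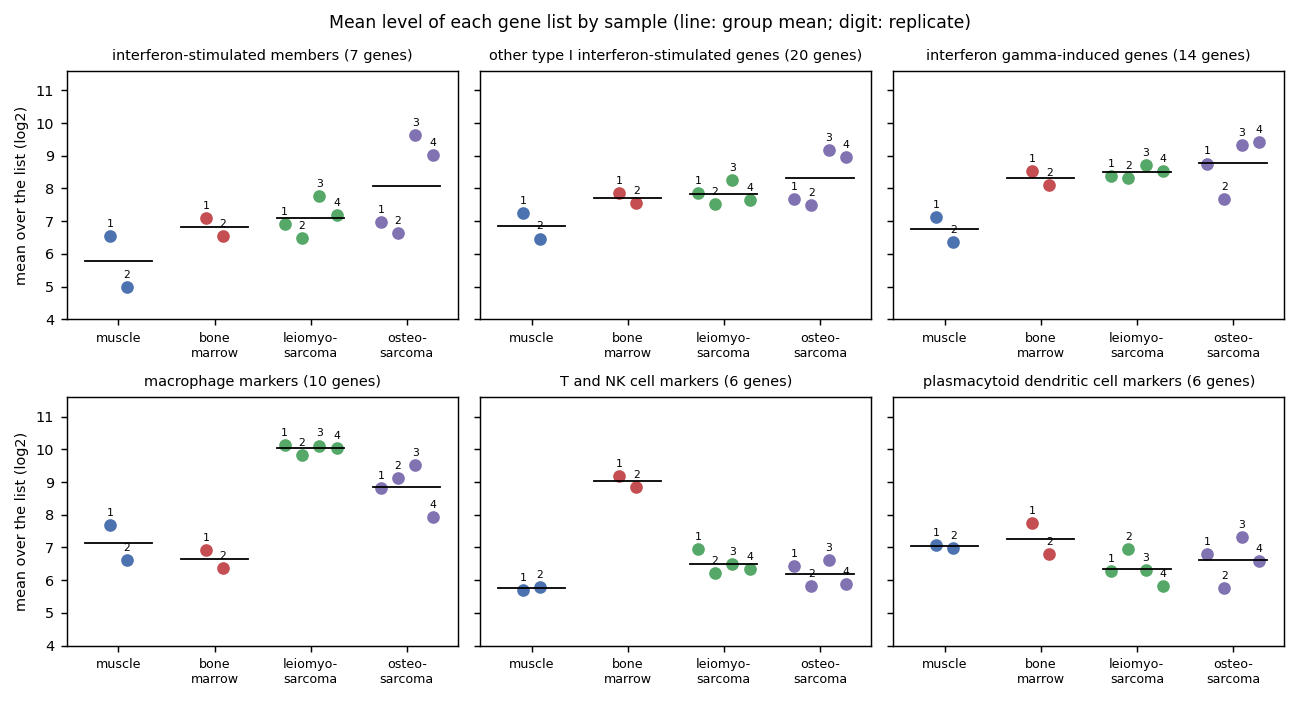
Mean log2 normalised signal (y axis) over the tested genes of 6 lists in each sample, with replicate numbers and group means as lines. Osteosarcomas 3 and 4 stand highest for the members (9.63 and 9.03) and for the other type I interferon-stimulated genes (9.18 and 8.97), whereas for macrophage markers osteosarcoma 4 (7.92) is the lowest osteosarcoma and the leiomyosarcomas lie at 9.82 to 10.13.

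With each sample set against the mean of its own group, the 7 members moved together across the 12 arrays, Ifit3 least closely. On each array all 7 were read from the same sample and normalised together. The 21 pairs of members had Pearson correlations of 0.55 to 0.97 with a median of 0.79. Without osteosarcomas 3 and 2, the samples farthest from their group mean, they ran from 0.07 to 0.96 with a median of 0.74, so the weakest pairs rested on those samples. These were pairs of Ifit3, at 0.07 with Isg15, 0.19 with Cmpk2, 0.24 with Rsad2 and 0.37 with Irf7. Ifit3 stood at 0.59 with Usp18 and 0.68 with Oasl2. The lowest pair without Ifit3 was Oasl2 with Isg15, at 0.54. Among 9666 other genes detected on at least 6 arrays, the 10 whose deviations were most like the members' mean were Trim25, Oasl1, Mx2, Ifit2, Phf11a, Oas2, Igtp, Stat2, Lgals3bp and Samd9l. Their correlations over 12 arrays ran from 0.98 for Trim25 down to 0.93 for Samd9l, and from 0.88 to 0.96 without those 2 samples, against a median of -0.01 and a 95th percentile of 0.60 for all genes compared. Of the 10, 8 are in the interferon lists used here, which hold 0.621% of the genes compared; Phf11a and Samd9l are not.

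Most interferon genes themselves were not detected. Of 9 interferon genes with a probe, 8 were not among the genes tested: Ifna2, Ifna4, Ifna5, Ifnb1, Ifnk, Ifne and Ifnl3 were detected on 0 arrays and Ifng on 1, a bone marrow array. Ifna1 was detected on 12 arrays and was lower in leiomyosarcoma than in muscle (-1.19 ± 0.23) and in osteosarcoma than in muscle (-1.24 ± 0.23) (limma adjusted p = 0.00146 and 0.00123), but the alpha interferon genes are near-identical copies and its signal cannot be given to 1 of them. Of the receptor chains, Ifnar2, which binds type I interferon with Ifnar1, was higher than in muscle by 2.12 ± 0.23 in leiomyosarcoma (at least 2.30-fold) and 1.43 ± 0.23 in osteosarcoma (at least 1.42-fold). Ifnar1 was detected on 0 arrays. Il10rb, a chain of the lambda interferon receptor, was higher by 2.32 ± 0.29 and 1.75 ± 0.29, and Ifngr1, of the gamma interferon receptor, was higher in leiomyosarcoma (1.13 ± 0.40) and gave 0.83 ± 0.40 in osteosarcoma without passing. Ifngr2 passed in neither. Against bone marrow, osteosarcoma was lower for Ifnlr1 (-5.03 ± 0.22) and Ifnar2 (-1.04 ± 0.23).

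Of 5 signalling genes, Stat2 was higher in osteosarcoma than in muscle (1.55 ± 0.51), and Jak1, Jak2, Tyk2 and Irf9 were not called in any comparison of a tumour with a normal tissue. Among 12 tested genes that sense nucleic acids, 3 were higher and 1 lower in leiomyosarcoma than in muscle, and 3 higher and 0 lower in osteosarcoma, shares near those of all genes (20.1% and 15.1%, 18.5% and 14.5%). Cgas, the sensor of cytoplasmic DNA, led both, at 3.53 ± 0.38 and 3.63 ± 0.38; the others were Tlr7 (2.12 ± 0.51), Sting1 (1.43 ± 0.32) and Mavs (-1.04 ± 0.21) in leiomyosarcoma and Dhx58 (1.99 ± 0.66) and Ddx58 (1.10 ± 0.41) in osteosarcoma. Against bone marrow osteosarcoma had Mavs higher (1.05 ± 0.21) and Ikbke lower (-1.64 ± 0.24). Of 7 negative regulators, 2 were higher in each tumour than in muscle, where 20.1% of all genes were higher in leiomyosarcoma and 18.5% in osteosarcoma. They were Adar, which edits double-stranded RNA (1.95 ± 0.43 and 1.32 ± 0.43, at least 3.05-fold and 1.97-fold), Socs3 in leiomyosarcoma (1.08 ± 0.36) and Samhd1 in osteosarcoma (1.44 ± 0.30). Against bone marrow, 1 of the 7, Adar, was lower in osteosarcoma (-1.27 ± 0.43), where 13.0% of all genes were lower.

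Of 20 other type I interferon-stimulated genes tested, 7 were higher and 0 lower in osteosarcoma than in muscle, against 18.5% and 14.5% of all genes. The leading genes were Lgals3bp, a secreted glycoprotein (3.22 ± 0.71), Oas1g, an oligoadenylate synthetase with near-identical copies (2.56 ± 0.67), Ifitm3, which blocks virus entry (2.19 ± 0.40), and Uba7, the enzyme that activates Isg15 (2.18 ± 0.39). In leiomyosarcoma 6 were higher and 0 lower than in muscle, against 20.1% and 15.1% of all genes. They were led by Ifitm3 (1.96 ± 0.40), Oas1g (1.93 ± 0.67), Uba7 (1.66 ± 0.39) and Parp14 (1.65 ± 0.54). Against bone marrow, osteosarcoma had Lgals3bp higher (3.33 ± 0.71) and Sp100, a nuclear body protein, lower (-1.50 ± 0.31). Leiomyosarcoma had 0 higher and 2 lower than bone marrow, with a median of 0.12, where 27.9% of all genes were called in either direction. Bone marrow exceeded muscle in 6 of the 20 with 0 lower, against 20.3% and 19.7% of all genes. The medians of the 20 genes were 1.37, 1.05, 0.70 and 0.72 in osteosarcoma minus muscle, leiomyosarcoma minus muscle, osteosarcoma minus bone marrow and bone marrow minus muscle.

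Of 14 genes best known for induction by interferon gamma, 9 were higher and 0 lower in each tumour than in muscle, and 2 were higher and 2 lower in osteosarcoma than in bone marrow. Of all genes, 20.1% were higher in leiomyosarcoma than in muscle and 18.5% in osteosarcoma than in muscle. In osteosarcoma against bone marrow 14.8% of all genes were higher and 13.0% lower. In osteosarcoma against muscle the leading genes were Psmb8 (3.88 ± 0.47) and Psmb9 (2.98 ± 0.36), subunits of the immunoproteasome, and the chemokines Cxcl9 (3.46 ± 0.85, at least 10.5-fold) and Cxcl10 (3.28 ± 0.90, at least 6.31-fold). Leiomyosarcoma was led by Cxcl10 (2.95 ± 0.90, at least 5.02-fold), Psmb8 (2.89 ± 0.47), Irf1 (2.69 ± 0.26) and Gbp2 (2.47 ± 0.72). Against bone marrow, Cxcl9 (3.36 ± 0.85) and Cxcl10 (3.35 ± 0.90, at least 6.94-fold) were higher in osteosarcoma, and Irf8 (-2.35 ± 0.34) and Psmb9 (-1.01 ± 0.36) lower. Of 10 macrophage markers, 9 were higher and 1 lower in leiomyosarcoma than in muscle, 8 higher and 1 lower in osteosarcoma than in muscle, and 6 higher and 0 lower in osteosarcoma than in bone marrow. In other comparisons they went another way than the interferon gamma list: in bone marrow minus muscle the marker median was -0.11 (1 higher, 2 lower) against 1.32 (5 higher, 0 lower), and in osteosarcoma minus leiomyosarcoma -1.20 (0 higher, 2 lower) against 0.33 (0 called). In leiomyosarcoma minus bone marrow the medians were 2.99 (9 higher, 0 lower) and 0.11 (2 higher, 3 lower). Of all genes, 20.3% were higher and 19.7% lower in bone marrow minus muscle. Called in either direction were 7.65% in osteosarcoma minus leiomyosarcoma and 27.9% in leiomyosarcoma minus bone marrow. The mean level of the macrophage markers was 9.82 to 10.13 in leiomyosarcoma, 7.92 to 9.53 in osteosarcoma, 6.61 to 7.69 in muscle and 6.39 to 6.92 in bone marrow. Their part in these results was not tested.

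Oasl2, Usp18 and Ifit3 have further probes. For each call of Oasl2 and Usp18 above, the further probes gave a smaller difference, and in 1 case one of the opposite sign. Tested one by one among 18013 probes, an alternative chosen after seeing the data, no further probe of these genes was called in any comparison. The second probe of Usp18 read 5.51 and 5.05 in muscle and 5.02 and 4.72 in bone marrow, not detected on any of them. It read 5.36, 5.27, 5.999 and 5.08 in the leiomyosarcomas and 4.92, 5.51, 7.35 and 7.19 in the osteosarcomas, where osteosarcomas 3 and 4 again stood highest. Its difference between osteosarcoma and bone marrow was 1.37 ± 0.59 (limma adjusted p = 0.0895), against 2.82 for the brighter probe. For Oasl2 the further probes gave 0.50 ± 0.46 and 0.55 ± 0.22 in osteosarcoma minus muscle, against 2.73 for the probe used. In leiomyosarcoma minus muscle, where Oasl2 was the called member, they gave -0.18 ± 0.46 and 0.12 ± 0.22, against 2.32. The probe at -0.18 was detected in 1 of 2 muscles and 3 of 4 leiomyosarcomas, and the probe at 0.12 in 0 of 2 and 0 of 4. Both differences thus lie near the floor and cannot decide on the call of the brighter probe. Between the tumour types the order was the other way, with 0.69 ± 0.38 and 0.43 ± 0.18 against 0.41. One of them read 5.07 and 5.81 in muscle, so the higher muscle sample was the other one than by the probe used (8.10 and 5.02). The second Ifit3 probe read 5.41, 5.16, 6.69 and 5.65 in the osteosarcomas, with osteosarcoma 3 highest as by the probe used, and gave 0.44 ± 0.37 in osteosarcoma minus leiomyosarcoma, against 0.16.

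**Figure D4:**
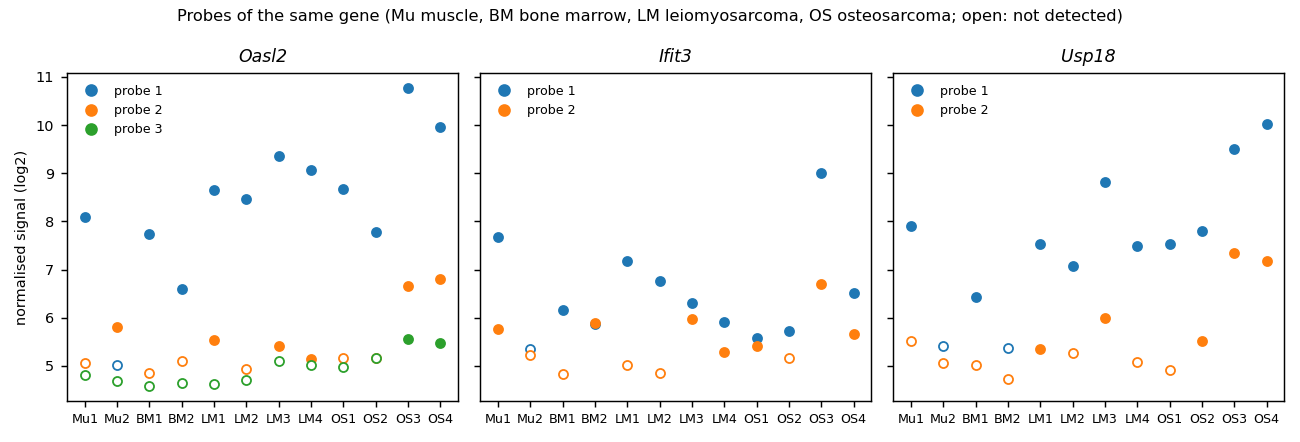
Log2 normalised signal (y axis) of every probe of Oasl2 (3 probes), Ifit3 (2) and Usp18 (2) in the 12 samples (x axis); open points were not detected, and probe 1 is the probe used in the comparisons. The further probes are dimmer in most samples, and osteosarcoma 3 is above osteosarcomas 1 and 2 by all 7 probes.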

How the data were processed

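Gene expression was measured in 12 samples, and the authors deposited 2 tables of the same arrays. One holds, per the file headers, an average intensity per probe after subtraction of 1 constant from each array, and the other the intensity before it; neither is normalised. The first also holds a detection p-value per probe, per the file headers, whose formula the sources used here do not state. The labels' protocols say that RNA was taken up in Trizol and labelled with the Ambion MessageAmp kit.

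The neqc function of limma (3.58.1 in R 4.3.3) corrected background, added an offset of 16, normalised by quantiles and took log2. Probes with a detection p under 0.05 on at least 2 arrays were kept (21383, of which 18013 have 1 gene symbol), and the probe of highest mean stood for its gene, giving 11754 genes. All 12 arrays entered 1 limma fit with a mean per group (4 means), with two-sided tests and Benjamini-Hochberg adjustment over all genes. A call needed an adjusted p under 0.05 and a log2 difference of at least 1. Where no array of a group detected a gene, the bound takes for each array the higher of the lowest normalised signal among detected probes and the gene's own. The model was tested on simulated data of 11754 genes: of 100 genes changed by 2 log2 it recovered 80% in osteosarcoma minus muscle and 77% in leiomyosarcoma minus muscle. The changed genes were drawn at random from all genes, each with its own spread. Among the osteosarcomas the median SD was 0.31 for all genes and 1.59 for the members. Recovery of genes that vary like the members was not tested.

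The members and all lists were chosen with earlier results of these data known. Named genes are the members, up to 4 called genes per list and comparison by size, the ligands, receptors and signalling genes, and the 10 genes of most similar deviations. Replicate numbers do not pair the samples. Sequences are from RefSeq (GRCm38.p6). Figures were drawn with matplotlib 3.10.9 in Python 3.11.15.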

Additional observations from a re-analysis of the deposited data

How the results depend on the processing

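Of the 7 counts of called members, several moved. The share of all genes called under each setting is not given here, so a moved count may not be particular to the members. Leiomyosarcoma minus muscle (1) became 0 with the background level as a block, with unsubtracted values, an offset of 50, no filter on dim probes, the mean of all probes or a trended robust spread, and 2 with median scaling. Osteosarcoma minus muscle (4) became 0 with the background block, 2 with no filter and 3 with unsubtracted values, where Rsad2 (2.17, limma adjusted p = 0.0588) was not called. Osteosarcoma minus bone marrow (2) became 0 with the background block and 3 with the mean of all probes. Bone marrow minus muscle (1) became 2 with the background block, median scaling or a stricter filter and 3 on the low-background arrays, and leiomyosarcoma minus bone marrow (0) became 2 there. Leaving out 1 sample in turn gave 0 to 2 for leiomyosarcoma minus muscle, 0 to 4 for osteosarcoma minus bone marrow, 0 to 1 for leiomyosarcoma minus bone marrow, 1 to 6 for osteosarcoma minus muscle, 0 to 1 for osteosarcoma minus leiomyosarcoma, 0 to 2 for bone marrow minus muscle and 0 to 0 for the difference of differences. Where 1 sample of a group remained, it was assumed to vary like the others. The cause was not tested.

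With the replicate number as a block the counts were 0 for leiomyosarcoma minus muscle and 4 for osteosarcoma minus bone marrow (2 higher, and Rsad2 at -1.31 and Cmpk2 at -2.29 lower). Leiomyosarcoma minus bone marrow had 2, both lower. Osteosarcoma minus muscle had 4, osteosarcoma minus leiomyosarcoma 2 and bone marrow minus muscle 2, all higher. The difference of differences had 3 (2 higher, 1 lower). The share of all genes called with this block is not given here, so these counts may not be particular to the members. Over all genes, same-numbered samples correlated at -0.08 to 0.08 in their deviations, and 1 of 4 leiomyosarcomas correlated best with the osteosarcoma of its own number. For the members it was otherwise. Their mean deviations, in the order of the numbers, were -0.18, -0.61, 0.68 and 0.10 in the leiomyosarcomas and -1.09, -1.42, 1.56 and 0.96 in the osteosarcomas, so both tumours had the same order. In muscle and bone marrow too, number 1 lay above number 2. Why was not tested. The block turned the sign in leiomyosarcoma minus muscle for Cmpk2 (-0.0103) and Ifit3 (-0.28), of Irf7 in leiomyosarcoma minus bone marrow (-0.31) and of Ifit3 in osteosarcoma minus muscle (-0.12).

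None of these sign changes, by gene, touched a called difference. By single probes, 1 further probe of Oasl2 had the opposite sign (-0.18 in leiomyosarcoma minus muscle). That probe lay near the floor, detected in 1 of 2 muscles and 3 of 4 leiomyosarcomas. Ifit3 in leiomyosarcoma minus muscle also turned with unsubtracted values (-0.0730), an offset of 50 (-0.0527) and the mean of probes (-0.0891), and Rsad2 in osteosarcoma minus bone marrow with unsubtracted values (0.0410). With 1 sample left out, Ifit3 ranged from -1.13 to 1.20 in leiomyosarcoma minus muscle, -0.0838 to 1.06 in osteosarcoma minus bone marrow, -0.97 to 1.36 in osteosarcoma minus muscle, -0.61 to 0.535 in osteosarcoma minus leiomyosarcoma and -1.66 to 0.67 in bone marrow minus muscle. Usp18 ranged from -0.16 to 2.32 in leiomyosarcoma minus muscle and -1.999 to 0.48 in bone marrow minus muscle, Rsad2 from -0.63 to 0.57 in osteosarcoma minus bone marrow, and Oasl2 from -0.0803 to 0.91 in osteosarcoma minus leiomyosarcoma and -0.93 to 2.15 in bone marrow minus muscle. Genes near background in muscle and bone marrow have only bounds there.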
